A study of Mus musculus with 6 samples.

Results

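The genes described here are those of the red blood cell lineage: the globins, the enzymes that make heme, the carriers that bring iron into the cell and its mitochondria, proteins of the red cell membrane, and the transcription factors that direct erythroid differentiation. They were chosen by name and by no measured value, though with earlier results of these data known, from a list of 36 genes. Of these, 33 had a probe on the array, with 51 probes among them, out of 16593 named genes in all. Hbb-b1, an adult β-globin, Ahsp, the chaperone of free α-globin, and Slc25a37, the mitochondrial iron importer mitoferrin, were not analysed here. The probes of 25 member genes passed the filter on dim signals, and 23 of these genes were detected on all 6 arrays. The other 8 genes with a probe were not tested.

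Brain RNA of mouse embryos of strain C57/BL6, taken at E12.5, was hybridised to Illumina BeadChips. The 3 knockout brains carried Nestin Cre together with Rest GTi/GTi, an invertible gene trap, and with p53 fl/fl, floxed alleles of Trp53. The 3 control brains carried Rest GTi/GTi as well as p53 fl/fl, without Cre. Each array was labelled a biological replicate of its genotype. Nestin-Cre is a driver of neural progenitors and their progeny, and recombination in red blood cells was not measured. The probe for Rest was detected on 0 arrays and Trp53 was not analysed here, so the targeted transcripts gave no check of the labels.

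Red blood cells of the mouse embryo come in waves. Primitive erythroid cells arise in the yolk sac, circulate while they mature and carry the embryonic globins ζ (Hba-x), εy (Hbb-y) and βh1 (Hbb-bh1). Definitive red cells come from the fetal liver and carry α-globin with adult β-globins. Heme is built from glycine and succinyl-CoA by a chain of enzymes that begins in the mitochondrion with Alas2 in erythroid cells and ends there with Fech, which inserts iron. A brain collected with its vessels holds circulating red cells, and in such a bulk sample fewer red cells and less RNA per cell cannot be told apart.

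Transcription of these genes is known to depend on GATA1, KLF1 and CCAAT-binding factors, so the sequence just upstream of 4 of the genes is shown, for an embryonic α-like globin, an embryonic and an adult β-like globin and the erythroid enzyme of heme synthesis. Each run is the 150 bases before the annotated start in RefSeq on build GRCm38.p6, read 5′ to 3′ on the strand of the gene. Capitals mark matches on either strand to GATAA, the core that GATA factors read, to CACCC, the core of KLF1 sites, and to CCAAT, the box of many globin promoters. No match overlaps another in these windows, though some touch.
Hba-x, chr11:32276450-32276599, plus strand: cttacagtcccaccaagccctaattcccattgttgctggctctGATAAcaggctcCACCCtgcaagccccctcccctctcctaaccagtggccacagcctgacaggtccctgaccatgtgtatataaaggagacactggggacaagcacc
Hbb-y, chr7:103853208-103853357, minus strand: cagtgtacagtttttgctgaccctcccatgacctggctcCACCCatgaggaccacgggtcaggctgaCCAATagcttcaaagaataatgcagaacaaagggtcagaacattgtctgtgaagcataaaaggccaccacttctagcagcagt
Hbb-bt, chr7:103813924-103814073, minus strand: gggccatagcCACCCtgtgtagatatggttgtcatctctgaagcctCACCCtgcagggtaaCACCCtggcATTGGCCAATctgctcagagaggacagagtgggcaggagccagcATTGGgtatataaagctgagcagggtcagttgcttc
Alas2, chrX:150547267-150547416, plus strand: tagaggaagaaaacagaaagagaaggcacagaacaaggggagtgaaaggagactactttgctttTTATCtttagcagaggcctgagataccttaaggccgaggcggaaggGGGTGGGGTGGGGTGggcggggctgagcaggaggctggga
A window was at hand for 26 of the 36 member genes. GATAA stood in 13 of them, or 50%, against 15.4% of 27025 genes with a window. CACCC was found in 18 of 26 windows, or 69.2%, against 40.5% of all genes, and CCAAT in 9 of 26, or 34.6%, against 27.7%. These matches describe the letters of the windows, and no binding was measured.

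The design holds 1 comparison, of knockout with control brains. No member gene passed the test. Of the 25 tested genes, 0 reached an adjusted p under 0.05 in limma and 0 reached an unadjusted p under 0.05, while over all 13755 probes tested these shares were 0% and 4.59%. The lowest p of a member, unadjusted, was 0.166, for Lmo2, and no member had an adjusted p below 0.999. By sign alone 7 members were higher in knockout brains and 18 lower, with a median difference of -0.09 on the log2 scale, beside a median of 0.01 over all probes, of which 48.7% were lower. The genotypes did not overlap for 2 of the 25 genes, Hba-a1 and Lmo2, or 8%, against 9.30% of all probes. Litter, slide and scan day are not in the labels. These p-values rest on the spread among the 6 arrays, which limma draws toward a variance shared by all tested probes.

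The sign of that median depended on 1 array. Knockout replicate 2 stood apart from the other arrays over the whole array, with a score of 40.7 on a principal component that held 32.5% of the variance, against -14.8 to -0.84 for the other 5. It was the lowest of the 6 arrays for 18 of the 25 members, or 72%, against 22.5% of all probes. Counted as below all controls, it was again 18 members, or 72%, against 29.3% of all probes. Relative to the mean of the controls, the median over the members was -0.63 on knockout replicate 2, against 0.12 and 0.13 on knockout replicates 1 and 3, and 0.11, 0.05 and -0.08 on control replicates 1, 2 and 3. Without knockout replicate 2, 18 members were higher and 7 lower, and the median difference was 0.11, beside 0.0026 over all probes.

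**Figure D1:**
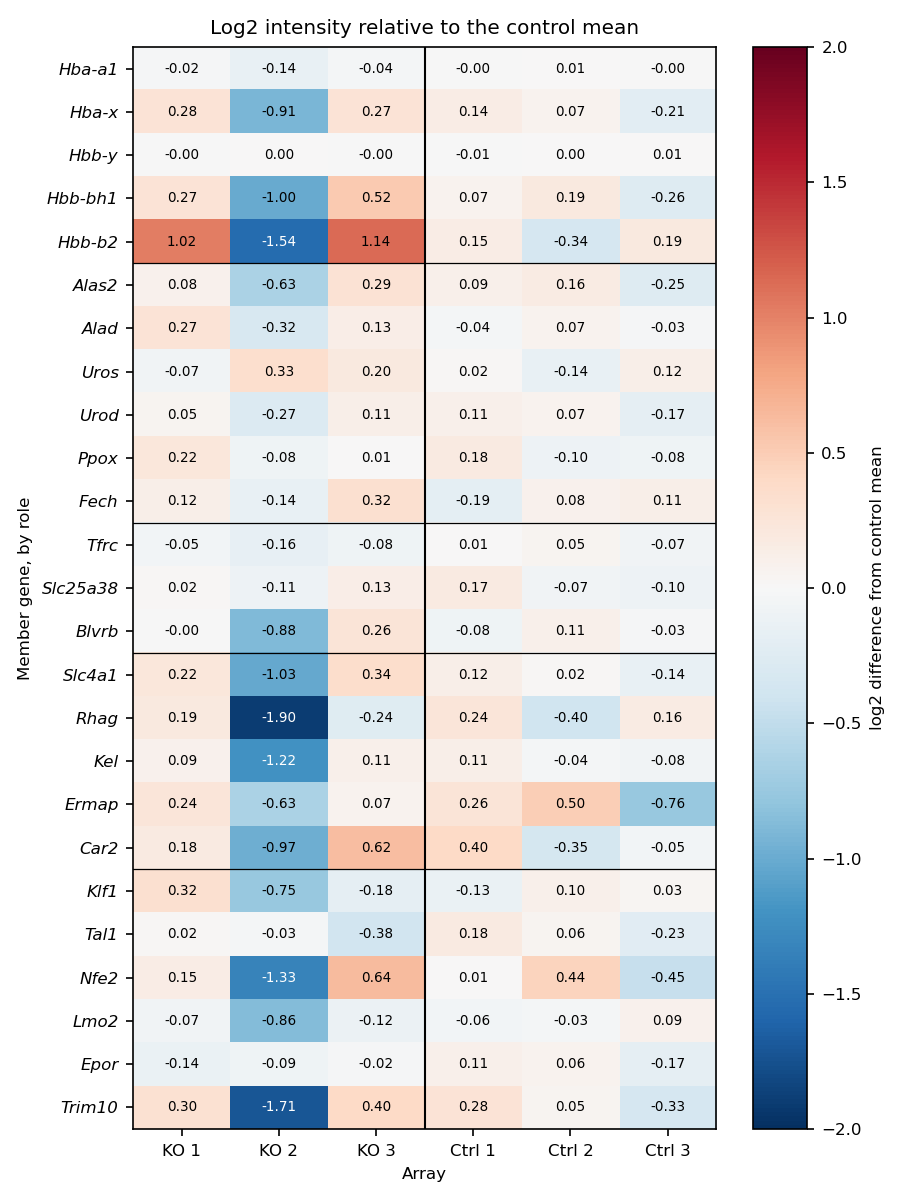
Log2 intensity of the 25 tested member genes (rows, grouped by role) on each of the 6 arrays (columns, knockout left of control), relative to the mean of the 3 control arrays; colour and printed number give the same value. Knockout replicate 2 was the lowest array for 18 of the 25 genes, while knockout replicates 1 and 3 lay near or above the controls for most rows.

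The α-like globins differed little in their means. Hba-a1, the adult α-globin, read 16.09, 15.97 and 16.07 in knockout brains, against 16.11, 16.12 and 16.10 in control brains, all log2 intensities. Each knockout value lay below each control value, yet the difference was -0.07 ± 0.11 (SE, n = 3 each, limma adjusted p = 0.999). The SD of Hba-a1 was 0.067 in knockout and 0.0064 in control brains, so that SE rests largely on the variance shared by all probes. Hba-x, the embryonic ζ-globin, read 15.74, 14.55 and 15.73 in knockout brains, against 15.60, 15.53 and 15.25 in control brains. Knockout replicate 2 was below the controls and the other 2 knockout arrays were above them, and the difference of -0.12 had a 95% interval of -0.90 to 0.66. Probes cannot be taken to separate Hba-a1 from its near-identical copy Hba-a2, so this value may stand for both genes.

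Among the β-like globins, Hbb-y, the embryonic εy-globin, was flat. It read 16.10, 16.10 and 16.10 in knockout brains, against 16.09, 16.10 and 16.11 in control brains. The difference was 0.00 with a 95% interval of -0.25 to 0.25. That interval rests mostly on the variance shared by all probes, as the SD was 0.0032 in knockout and 0.0066 in control brains. Both Hbb-y and Hba-a1 sat at the upper end of the scale. Quantile normalization gave the brightest probe of every array the same value, 16.13, and leaves little room for differences there. Whether the scanner also limited the differences of these 2 genes was not tested. A second probe of Hbb-y gave 16.10, 16.11 and 16.10 in knockout brains and 16.10, 16.09 and 16.09 in control brains. There the groups did not overlap although they differed by only 0.01.

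The βh1-globin and the adult β-globins lay lower on the scale and varied more among the knockout brains. Hbb-bh1 read 14.64, 13.37 and 14.89 in knockout brains, against 14.44, 14.56 and 14.11 in control brains, with a difference of -0.07 ± 0.39 (SE, n = 3 each). Hbb-b2, an adult β-globin, read 9.87, 7.30 and 9.98 in knockout brains, against 8.99, 8.50 and 9.03 in control brains. For both genes knockout replicate 2 was the lowest array and the other knockout arrays were the highest, and for Hbb-b2 the difference of 0.21 had a 95% interval of -1.43 to 1.84. A further probe annotated to Hbb-bt, an adult β-globin of the haplotype that C57BL/6 mice carry, is no member of the list. It read 14.31, 12.88 and 13.52 in knockout brains, against 13.81, 13.93 and 13.93 in control brains. Here only knockout replicate 1 lay above the controls, and the difference was -0.32 ± 0.34 (SE, n = 3 each). The adult β-globins are close copies, and which transcripts each probe read is uncertain.

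The balance of embryonic to adult β-like globin is given with and without Hbb-y, whose probe stayed at the top of the scale on every array and so held the embryonic term in place. The mean of Hbb-y and Hbb-bh1 minus Hbb-b2 differed between the genotypes by -0.24, with an SD of 1.11 among knockout brains. Without Hbb-y, Hbb-bh1 minus Hbb-b2, relative to the control mean, was -0.75, 0.54 and -0.62 in knockout replicates 1, 2 and 3, against -0.08, 0.53 and -0.45 in the controls. The genotypes then differed by -0.28, less than the SD of 0.71 among knockout brains. Hbb-bh1 minus Hbb-bt was -0.15, 0.01 and 0.89 in knockout brains, against 0.15, 0.15 and -0.30 in control brains. That difference was 0.25, also within the SD of 0.56 among knockout brains, so that the sign changed with the adult probe. Leaving out Hbb-y and the use of Hbb-bt were choices made after the values were seen.

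**Figure D2:**
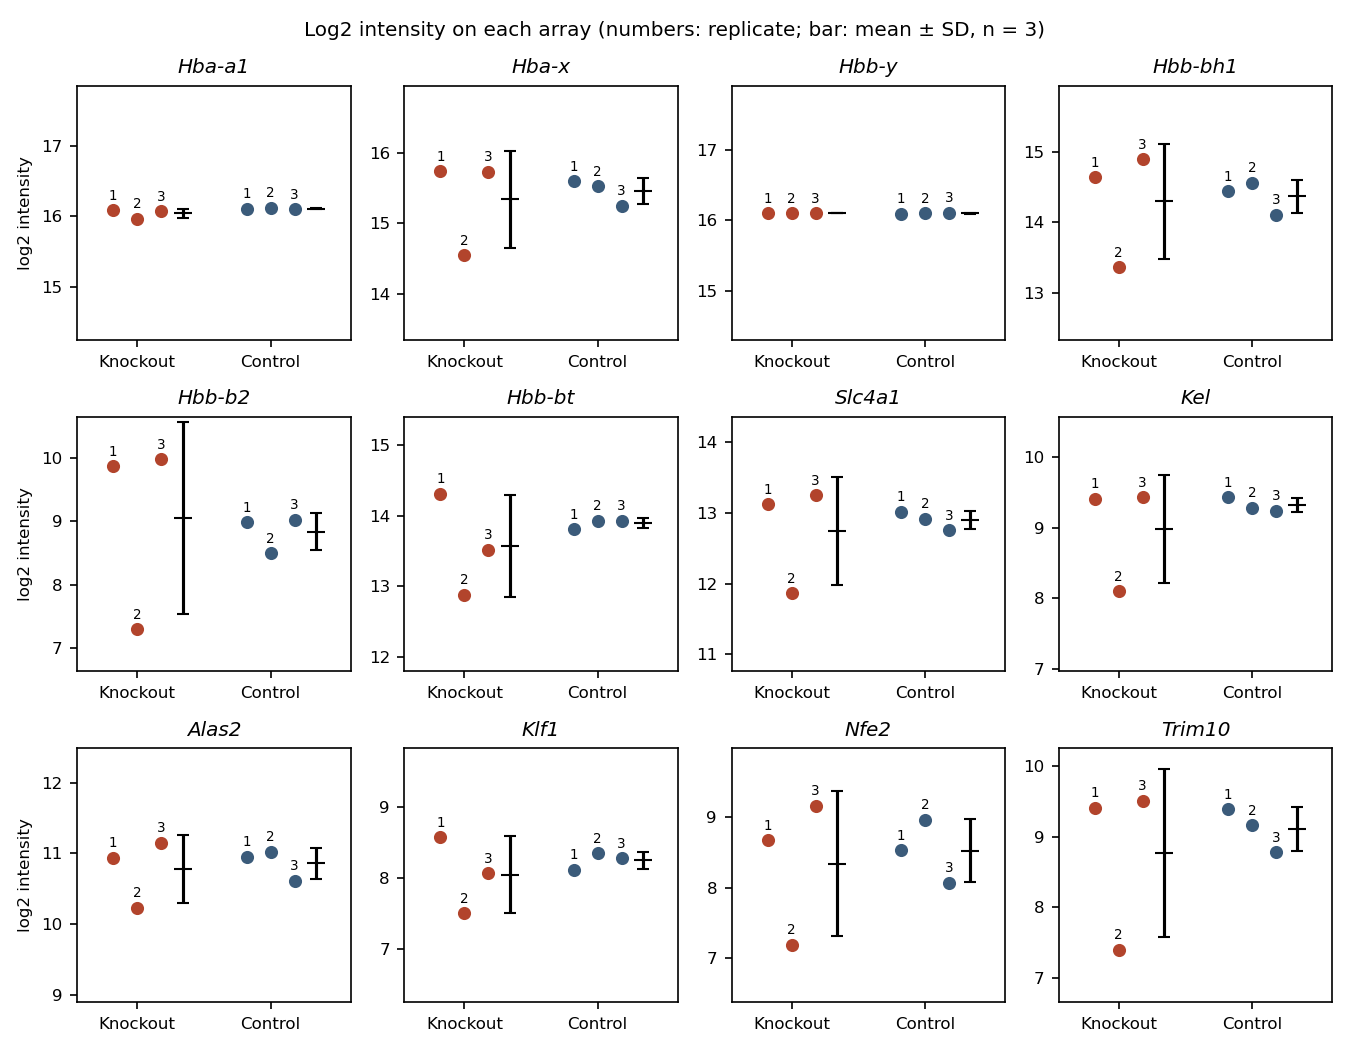
Log2 intensity of 12 genes on each array, with knockout brains left of control brains; numbered points are replicates and the black bar at the right of each group is its mean ± SD (n = 3). Hba-a1 and Hbb-y lie within 15.97 to 16.12 on all arrays, while knockout replicate 2 is the lowest point in each of the other 10 panels.

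The heme synthesis genes differed little. Of the 6 tested enzymes, 4 were higher in knockout brains by sign and 2 lower, with a median of 0.04 and differences between -0.09 and 0.15. Alas2, which makes the first committed precursor in erythroid cells, read 10.94, 10.23 and 11.15 in knockout brains, against 10.95, 11.02 and 10.61 in control brains. Alad, which joins 2 molecules of that precursor, read 12.84, 12.25 and 12.71 in knockout brains, against 12.53, 12.64 and 12.54 in control brains. The lowest value of both was on knockout replicate 2, and the differences were -0.09 and 0.03.

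Knockout replicate 2 was the lowest array for 3 of the 6 enzymes, Alas2, Alad and Urod. Without it all 6 were higher by sign, with a median of 0.15. Uros, which closes the ring of the tetrapyrrole, was not low there. Relative to the control mean it read -0.07, 0.33 and 0.20 in knockout brains, against 0.02, -0.14 and 0.12 in control brains, so that knockout replicate 2 was the highest array here. The difference was 0.15 ± 0.15 (SE, n = 3 each), and a second probe of Uros gave 0.36 with an unadjusted p of 0.0498 in limma and an adjusted p of 0.999. It was the 1 of 36 tested probes of members past the unadjusted threshold, which 4.59% of all probes passed, and is given for that, after its value was seen. Fech read 7.68, 7.42 and 7.88 in knockout brains, against 7.37, 7.65 and 7.67 in control brains, which overlapped at a difference of 0.10. Urod, which trims the side chains of the ring, differed by -0.03 and Ppox, which oxidises it before iron is added, by 0.05. Cpox, the enzyme before Ppox, was detected on at most 2 arrays and was not tested.

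Of the genes for iron, mitochondrial carriers and heme breakdown, 3 were tested. Tfrc, the transferrin receptor through which cells take up iron, read 12.27, 12.16 and 12.24 in knockout brains, against 12.33, 12.37 and 12.25 in control brains, a difference of -0.09. Its other probe gave 0.01. Blvrb, biliverdin reductase B, read 10.74, 9.87 and 11.01 in knockout brains, against 10.67, 10.85 and 10.72 in control brains. Only knockout replicate 2 was low for Blvrb, and the difference was -0.20 with a 95% interval of -0.88 to 0.48. Slc25a38, the mitochondrial glycine carrier, differed by 0.01, while its other 2 probes gave -0.12 and 0.02.

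All 5 tested genes of the red cell membrane and cytoplasm had a negative difference, with a median of -0.15, and none passed the test. Without knockout replicate 2, 4 of the 5 were higher by sign and the median was 0.15. Rhag, the Rh-associated glycoprotein, read 7.56, 5.46 and 7.12 in knockout brains, against 7.60, 6.97 and 7.53 in control brains. None of its 3 probes was detected on knockout replicate 2, and the differences they gave were -0.65, -0.45 and -0.19. For the brightest probe the SE was 0.52. Without background correction the difference of Rhag was -0.08, but the brightest probe was chosen anew there and may be another of the 3. Kel, the Kell blood group metalloprotease, read 9.41, 8.10 and 9.43 in knockout brains, against 9.43, 9.28 and 9.24 in control brains, a difference of -0.34 ± 0.35 (SE, n = 3 each), or -0.21 without background correction. Apart from replicate 2 the knockout brains lay within the control range for Rhag and Kel.

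Slc4a1, the band 3 anion exchanger that anchors the membrane skeleton, read 13.13, 11.87 and 13.25 in knockout brains, against 13.02, 12.92 and 12.76 in control brains. Knockout replicate 2 was below, and the other knockout arrays above, all controls, and the difference was -0.15 ± 0.35 (SE, n = 3 each). Ermap, an erythroid membrane protein of the Scianna blood group, and Car2, carbonic anhydrase 2, differed by -0.11 and -0.05. Epb42, Add2, Rhd and Icam4, the other genes of this group, were detected on 0 arrays.

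Regulators of the lineage also ran lower by sign, 6 of 6 tested, with a median of -0.19 and none past the test. Without knockout replicate 2, 3 of the 6 were higher and 3 lower, and the median was -0.0027. Lmo2, a bridging protein of the GATA1 and TAL1 complex that endothelium also expresses, read 11.83, 11.04 and 11.78 in knockout brains, against 11.84, 11.87 and 11.99 in control brains. The groups did not overlap, but knockout replicates 1 and 3 lay just under the lowest control, and the difference was -0.35 with a 95% interval of -0.88 to 0.19. Trim10, an erythroid ring-finger protein, read 9.41, 7.40 and 9.51 in knockout brains, against 9.39, 9.16 and 8.78 in control brains, a difference of -0.34 ± 0.55 (SE, n = 3 each). Its second tested probe gave -0.34 as well. On that probe knockout replicates 1 and 3, at 6.84 and 6.85, lay within the control range of 6.65 to 7.34. Without background correction the difference of Trim10 was -0.15.

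Klf1, the erythroid Krüppel-like factor that activates adult β-globin, read 8.58, 7.50 and 8.07 in knockout brains, against 8.12, 8.35 and 8.28 in control brains. Nfe2, the factor that binds the globin locus control region, read 8.67, 7.19 and 9.16 in knockout brains, against 8.53, 8.96 and 8.07 in control brains. Both sets overlapped, with differences of -0.20 for Klf1 and -0.18 for Nfe2. Without background correction they were -0.09 and -0.06. Tal1, a factor of early blood and of neurons of the midbrain and spinal cord, differed by -0.13, and Epor, the erythropoietin receptor, by -0.08. Gata1, Gfi1b and Hemgn were detected on 0 arrays by their probes, which says nothing about these transcripts beyond the sensitivity of those probes.

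**Figure D3:**
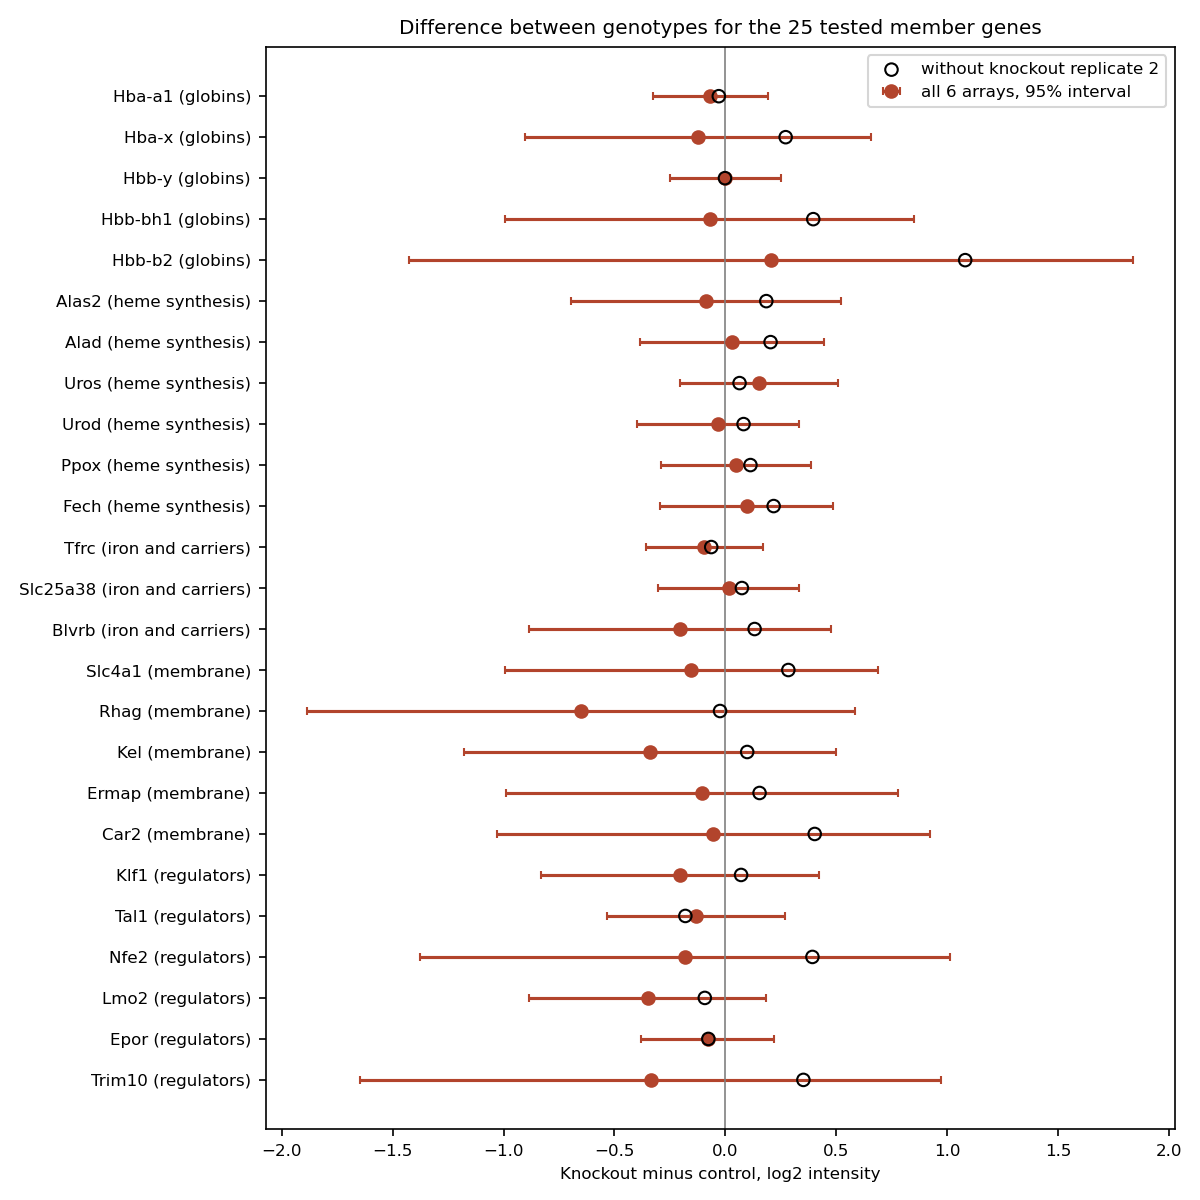
Knockout minus control difference in log2 intensity for the 25 tested member genes, with 95% intervals from limma (filled points, all 6 arrays) and the difference without knockout replicate 2 (open circles). Every interval includes 0, and the median of the points is -0.09 with all arrays and 0.11 without knockout replicate 2.

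Leaving out knockout replicate 2 turned the sign of 13 of the 25 differences. Hbb-b2 was then 1.08 ± 0.20 higher (SE, 2 knockout and 3 control brains, unadjusted p = 0.0017, limma adjusted p = 0.705) and was the 1 member past the unadjusted threshold, which 6.32% of all probes passed in that fit. The probe of Hbb-bt did not share this rise, at 0.42 and -0.37 relative to the control mean on knockout replicates 1 and 3. Both remaining knockout arrays lay above all controls for 7 of 25 members, or 28%, against 11.2% of all probes. These were Hba-x, Hbb-bh1, Hbb-b2, Alad, Fech, Slc4a1 and Trim10, each by its brightest probe. Fech was above narrowly, at 7.68 on knockout replicate 1 against 7.67 on control replicate 3. The other tested probes of Fech and of Trim10 did not lie above all controls on both arrays. The 2 members below all controls were Hba-a1 and Lmo2, or 8%, against 11.4% of all probes. Counted after the values were seen, the full pattern of replicate 2 below all controls and replicates 1 and 3 above them was shared by 6 genes, those of the list of 7 without Fech, which is 24% of members and 3.02% of all probes.

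The members scattered more among knockout than among control brains, a difference that was not tested. Knockout replicate 2 lay apart, with a member median of -0.63 relative to the controls, while replicates 1 and 3 were close, at 0.12 and 0.13. The median SD over the members was 0.46 in knockout brains and 0.15 in control brains, while over all probes it was 0.22 in knockout brains and 0.16 in control brains. The SD was larger in knockout brains for 19 of the 25 members, or 76%, and for 62.9% of all probes. By role, the median on knockout replicate 2 relative to the controls was -0.91 for the globins, -1.03 for the membrane genes and -0.81 for the regulators. It was -0.21 for the heme enzymes and -0.16 for the iron and carrier genes. Several of these genes are known in neural cells too, and the part of neural cells in these values was not tested.

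Lists of other cell types were also low on the same array. On knockout replicate 2 the median relative to the controls was -2.62 for 10 genes of mesenchyme and meninges, -1.69 for 6 of the choroid plexus, -0.70 for 11 of endothelium and pericytes, -0.74 for 8 of megakaryocytes and platelets and -0.45 for 10 of macrophages and microglia. For 9 genes of young neurons it was 0.44, and for 8 of neural progenitors 0.11. The replicate was the lowest array for 10 of 10 mesenchymal genes, 7 of 8 megakaryocyte genes, 7 of 11 endothelial genes and 0 of 9 neuronal genes. The part of these other cells in the low erythroid values was not tested.

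The summed intensity of each list is given on the log2 scale. Mesenchyme and meninges reached 11.09 to 13.58 in knockout brains, against 13.15 to 13.80 in control brains, and choroid plexus 13.78 to 14.32 in knockout brains, against 14.34 to 14.88 in control brains. Endothelium and pericytes reached 12.49 to 13.50 in knockout brains and 13.32 to 13.54 in control brains, with Kdr and Rgs5 not detected on any array. Megakaryocytes and platelets reached 10.73 to 11.69 in knockout brains and 11.62 to 12.10 in control brains, and macrophages and microglia 11.13 to 12.13 in knockout brains and 11.90 to 12.33 in control brains. For the member genes the same sum was 17.66 to 18.09 in knockout brains and 17.90 to 18.02 in control brains. The globins alone reached 17.37 to 17.78 in knockout brains and 17.60 to 17.70 in control brains. Such a sum is carried by its brightest genes, here among them Hba-a1 and Hbb-y at the top of the scale. Its range is therefore not comparable between lists. Of 12 white cell and blood progenitor genes, 8 were not detected on any array, among them Ptprc and Spi1, and 3 were tested. Of 9 fetal liver genes with a probe, 5 were not detected on any array, among them Alb and Afp, and 2 were tested. On knockout replicate 2 the median relative to the controls was -1.53 for the 3 white cell genes and -2.87 for the 2 fetal liver genes. It was the lowest array for 2 of the 3 and 1 of the 2. Ttr is on both the fetal liver and the choroid plexus list.

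**Figure D4:**
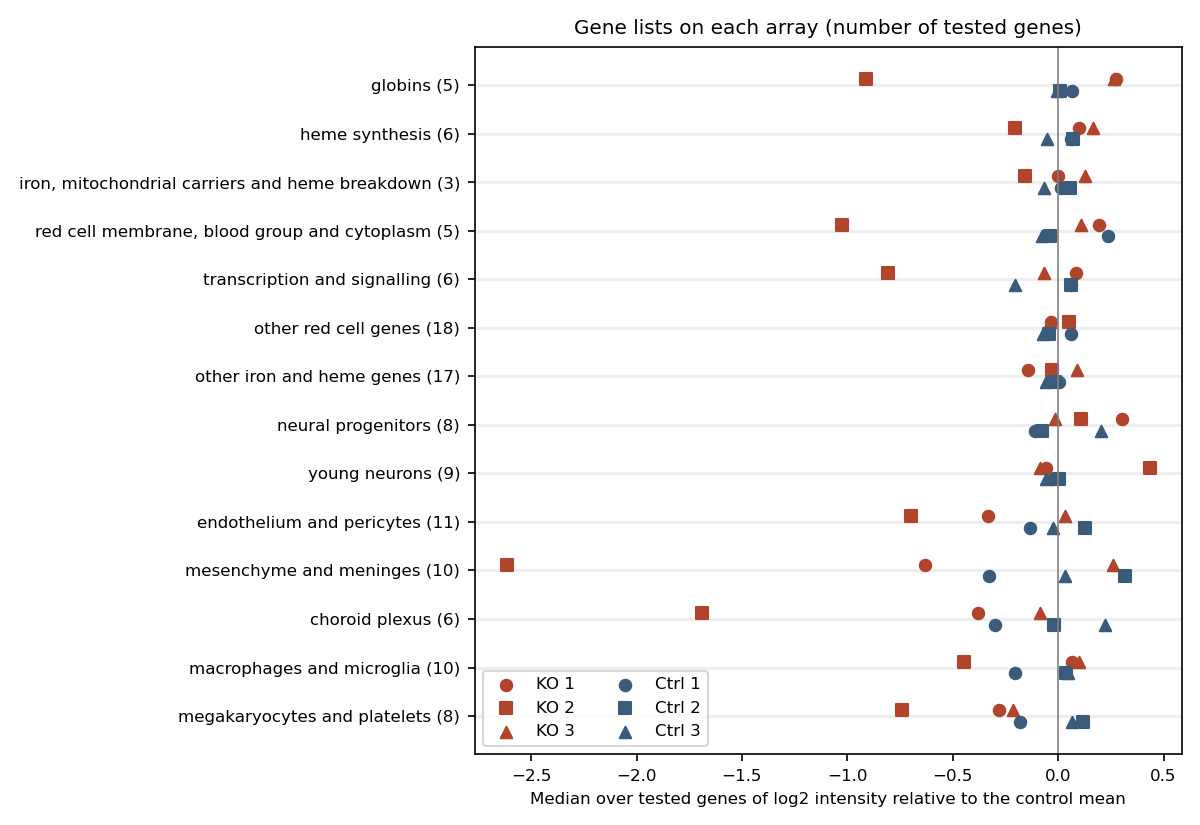
Median over the tested genes of each list (number in brackets) of log2 intensity relative to the control mean, for each knockout array (red, upper points of a row) and control array (blue, lower points). Knockout replicate 2 (red squares) lies at -0.91 for globins and -2.62 for mesenchyme and meninges, near 0 for the other red cell and other iron and heme genes, and at 0.44 for young neurons.

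Other genes used by red cells were not low on knockout replicate 2 as a list, with a median of 0.05 there relative to the controls. Of 37 other genes of red cells, 18 were tested, 8 higher and 10 lower by sign and 0 past an unadjusted p under 0.05, with a median difference of -0.02. Knockout replicate 2 was the lowest array for 3 of the 18. Many of these genes are also expressed outside the lineage, and the part of other cells in their values was not tested. The largest differences were 0.37 for Tmcc2, a transmembrane coiled-coil protein, -0.25 for Cited4, a transcriptional co-regulator, and 0.23 for Bpgm, the enzyme that makes 2,3-bisphosphoglycerate in red cells.

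Of 22 other genes of iron and heme handling, 17 were tested, 8 higher and 9 lower by sign and 0 past an unadjusted p under 0.05, with a median of -0.03. Ncoa4, the receptor that takes ferritin to the lysosome, read 9.48, 9.35 and 9.88 in knockout brains, against 9.44, 9.03 and 9.15 in control brains, a difference of 0.37 that overlapped. Slc40a1, the iron exporter ferroportin, read 10.64, 10.17 and 11.04 in knockout brains, against 11.04, 10.95 and 10.91 in control brains, a difference of -0.35. Hebp1, a heme-binding protein, differed by -0.33. Alas1, the form of the first heme enzyme used outside erythroid cells, differed by 0.17, with Hmox1, the inducible heme oxygenase, at -0.23.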

How the data were processed

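Microarray values of 6 E12.5 brains were used as the authors deposited them: for every probe on each array a linear intensity, read with BeadStudio and quantile-normalized with lumi per the study's methods, and a detection p-value the authors' software derived from negative control beads. A second deposited table held the same intensities in 154170 of 154170 values within a relative tolerance of 1e-4. The sorted intensities of the arrays differed by at most 1.61%. Depth per array is the 13416 to 13889 of 25696 probes detected (52.2% to 54.1%), and the number of arrays limits the precision.

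The deposited probe IDs were displaced against the values by 2 lines over 84.8% of 25699 lines, after 2 empty ID cells. The cells were dropped and IDs paired with values in order, leaving out 1 ID and 2 lines of values. Mean levels of adjacent probes of a gene then correlated at r = 0.482 over 6232 pairs, against at most 0.256 for other offsets.

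Here intensities were corrected and turned to log2 with neqc (offset 16, negative control level from the detection p-value) in limma 3.58.1 under R 4.3.3. Probes with a detection p under 0.05 on at least 3 of 6 arrays were tested (13755) with lmFit and eBayes, two-sided, with Benjamini-Hochberg adjustment over all probes. Each gene is given by its brightest tested probe, and other probes where they differ in sign or by over 0.3. Values per array are given for the globins and for the 2 members of each role with the largest difference, and for others chosen after their values were seen. Gene names follow the platform annotation, updated through RefSeq (Python 3.11.15). Members and lists were chosen with earlier results of these data known. The fit was tested on simulated data. Replicate numbers did not pair the brains (correlations of same-numbered deviations -0.01, -0.08 and -0.15).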

Additional observations from a re-analysis of the deposited data

How the results depend on the processing

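No member passed the adjusted threshold under any alternative with a test. Over all probes, 1 was called without background correction, 1 with log2 values centred on each array's median and 1 with limma's trend and robust options, against 0 in the other settings, including the methods' t-test, by which 624 probes passed an unadjusted p under 0.05 against 632 in limma. With no filter on dim probes 1169 probes passed an unadjusted p under 0.05. Replicate number as a block, on numbers that do not pair the brains, gave 0 called probes, 552 past the unadjusted threshold and 0 members, and changed no call. It could not turn a sign, and no sign turned without background correction, with nec at offset 50, with no filter, with detection required on all arrays or with the other tests. Sizes were less stable. Without background correction 9 of the 25 member differences shrank by over 1.5 times and 0 grew by as much: Rhag to -0.076, Kel to -0.21, Trim10 to -0.15, Klf1 to -0.092, Nfe2 to -0.058, Ermap to -0.052, Epor to -0.027, Car2 to -0.011 and Fech to 0.044. Centring on the median shrank the same 9 genes, and nec moved 0 by that much. The brightest probe of a gene was chosen anew in each setting, so the change for Rhag may in part be a change of probe.

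Leaving out each array gave 0 to 1 members past the unadjusted threshold, the 1 being Hbb-b2 without knockout replicate 2. The median over members ranged from -0.21 to 0.11, and embryonic minus adult β-like globin from -0.88 to 0.082. The globin contrast was 0.29 with Hbb-bt in place of Hbb-b2, -0.28 with Hbb-y left out and 0.25 with both changes, all chosen after seeing the data. Signs turned for 18 members, with these ranges of the log2 difference: Hba-x -0.32 to 0.27, Hbb-y -0.0033 to 0.012, Hbb-bh1 -0.37 to 0.40, Hbb-b2 -0.26 to 1.08, Alas2 -0.28 to 0.18, Alad -0.093 to 0.20, Urod -0.12 to 0.082, Ppox -0.038 to 0.14, Fech -0.014 to 0.22, Slc25a38 -0.042 to 0.10, Blvrb -0.44 to 0.13, Slc4a1 -0.40 to 0.28, Kel -0.56 to 0.10, Ermap -0.49 to 0.15, Car2 -0.39 to 0.40, Klf1 -0.47 to 0.071, Nfe2 -0.59 to 0.39, Trim10 -0.70 to 0.35. Omitting knockout replicate 2 turned 13 of them, and each of the other arrays 1 to 5.

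With probe IDs as deposited, and identically in the second deposited table, 21 of the 25 members had a value and 14 changed sign because each name then held another probe's values: Hba-x 0.21, Hbb-y -0.014, Hbb-bh1 0.012, Uros -0.031, Urod 0.15, Ppox -0.014, Fech -0.025, Slc25a38 -0.10, Blvrb 0.11, Tal1 0.013, Nfe2 0.52, Lmo2 0.10, Epor 0.43, Trim10 0.056. With log2 values centred on the median Hbb-y was -0.00014, and with the mean of its probes Slc25a38 was -0.029.

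With 3 brains a group, the 95% intervals of Hba-x, Hbb-bh1 and Hbb-b2 reach at least 0.66 on the log2 scale either way, and that of Hbb-bt runs from -1.12 to 0.47, so differences within these bounds could not be told from 0. Hba-a1 and Hbb-y lie at the top of the intensity scale, and dim genes such as Rhag, Ermap and Epor near the limit of detection.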
